A study of Mus musculus with 2 samples.

Results

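The forkhead transcription factor genes examined here were the 41 autosomal protein-coding genes of GENCODE M21 whose symbol is Fox followed by a letter from a to s and a number, out of 20722 autosomal protein-coding genes in all. They were chosen by name, with earlier results of these data known, and were read against CTCF ChIP-seq peaks of newborn mouse stomach. The tissue was stomach of strain B6NCrl at postnatal day 0, immunoprecipitated with an antibody to CTCF and sequenced as 2 replicates of 1 group. By the labels both replicates came from the same donor and tissue sample, so the spread between them may be technical, and the sex was not collected. Control libraries were not analysed here, there was no second condition, and no expression was measured, so the tissue label could not be checked against marker genes. Stomach is a mixture of epithelium, muscle, nerves, vessels and blood. In such a bulk sample, binding in fewer cells and weaker binding per cell cannot be told apart.

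Forkhead factors bind DNA through a winged helix domain and set the fate of many tissues. Foxa1, Foxa2 and Foxa3 are pioneer factors of the endoderm that open chromatin for the genes of the gut epithelium, whereas Foxf1, Foxf2 and Foxl1 act in the gut mesenchyme, where hedgehog signals from the epithelium induce them. CTCF is the zinc finger protein that marks insulators, and together with cohesin it halts loop extrusion, with loops forming mostly between CTCF sites whose motifs point towards each other.

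The CTCF sites nearest to the results are shown first, because they are the letters behind the strongest peaks at the gut genes and inside the forkhead clusters. Each is read 5′ to 3′ along its own strand from the mm10 assembly. Capitals mark the 19 bases that matched a CTCF matrix built from the strongest peaks of chromosome 1, on which no forkhead gene lies, and 5 bases on either side are in lower case. The consensus of that matrix was TGGCCACCAGGGGGCACTA. The first sites belong to the strongest peak within 10 kb of each gut gene that held the motif.
Foxa1, chr12:57545124-57545152, minus strand: ctctaGGACCGCTGGGTGGCGCTAgtgcg
Foxa2, chr2:148048637-148048665, minus strand: cctcgCGGCCGACAGGGGGCGCCCtgtca
Foxa3, chr7:19029461-19029489, minus strand: atgcaGAAACTCCAGGTGGCGCCTtcgcg
Foxf1, chr8:121092859-121092887, minus strand: agaaaCGGACAGCAGGCGGCGCTGtctcc
Foxf2, chr13:31632668-31632696, minus strand: ctcctGCTCCACCAGGCGGCGCGCtggtc
The next sites lay between the genes of a cluster.
Foxf1 to Foxc2, chr8:121104228-121104256, plus strand: caaaaCCACCACAAGAGGGCGCCAgagtc
Foxf1 to Foxc2, chr8:121090949-121090977, minus strand: cagaaCAGGCAGGAGAGGGCAGCAgaggc
Foxf1 to Foxc2, chr8:121113503-121113531, plus strand: acaacCGGCCTCAAGATGGCACCAccacc
Foxf2 to Foxc1, chr13:31792674-31792702, plus strand: cttcaTTGCCACTAGATGACGCCAgagct
Foxf2 to Foxc1, chr13:31801350-31801378, plus strand: agcagCGGGCGGCAGGGGGCGCTCggagc
Foxd2 to Foxe3, chr4:114908984-114909012, minus strand: gagttTCAACACCAGGGGGCGCTGaggag
Foxd2 to Foxe3, chr4:114913773-114913801, minus strand: gcgacGGTCCTCCAGAGGTCGCTGttctc
Foxd2 to Foxe3, chr4:114917277-114917305, plus strand: cagcaTGGCCAACAGGTGGCACTGttgtc
All 13 sites carried the consensus base at positions 5, 10, 13 and 15, counted from the 5′ end of the match, and differed most at positions 1 and 16, where 3 sites each had it. The site in the intron of the noncoding gene Foxd2os on the plus strand shared 16 of 19 bases with the consensus, the largest number of these sites, and the Foxa3 site shared 10, the smallest.

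CTCF bound close to most forkhead genes. A gene was counted when the summit of a peak in the authors' optimal list, the list after their IDR comparison of replicates, lay within a set distance of the start of any of its coding transcripts. Within 10 kb, 37 of 41 forkhead genes had a peak, or 90.2% with an exact Clopper-Pearson 95% interval from 76.9% to 97.3%, beside 71.6% of all autosomal coding genes. Within 1 kb the count was 20 of 41, or 48.8% with an interval from 32.9% to 64.9%, beside 43.6% of all genes. Within 50 kb all 41 had a peak, beside 89.3% of all genes. These intervals cover counting error only, and genes are not replicates of a condition, so no test over genes was made.

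The starts of forkhead genes are rich in CpG, and so are those of many genes near CTCF. A start was called CpG-rich where, within 500 bp of it, the CpG count was at least 0.6 of that expected and the GC content at least 50%. That held for 28 of 41 forkhead genes, or 68.3%, and for 38.4% of all genes. Among all genes with a CpG-rich start, 86.8% had a peak within 10 kb and 62.9% within 1 kb. The 28 forkhead genes of this kind had 26 within 10 kb (92.9%) and 15 within 1 kb (53.6%). Read against genes with like starts, the share at 10 kb was thus close to the background and the share at 1 kb below it, with the background inside the interval from 33.9% to 72.5%. The 13 forkhead genes without a CpG-rich start had 11 within 10 kb (84.6%) beside 62.2% of all such genes, and 5 within 1 kb (38.5%) beside 31.5%. At 50 kb, where all forkhead genes had a peak, the shares of all genes with and without a CpG-rich start were 98.7% and 83.4%. Forkhead genes also have fewer starts, which gives fewer places to count from: 26 of 41 have 1 start (63.4%), beside 36.9% of all genes. Of these 26, 12 had a peak within 1 kb, 23 within 10 kb and 26 within 50 kb, beside 33.6%, 64.1% and 87.4% of all genes with 1 start. The 15 with several starts had 8, 14 and 15, beside 49.4%, 76.0% and 90.4%.

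**Figure D1:**
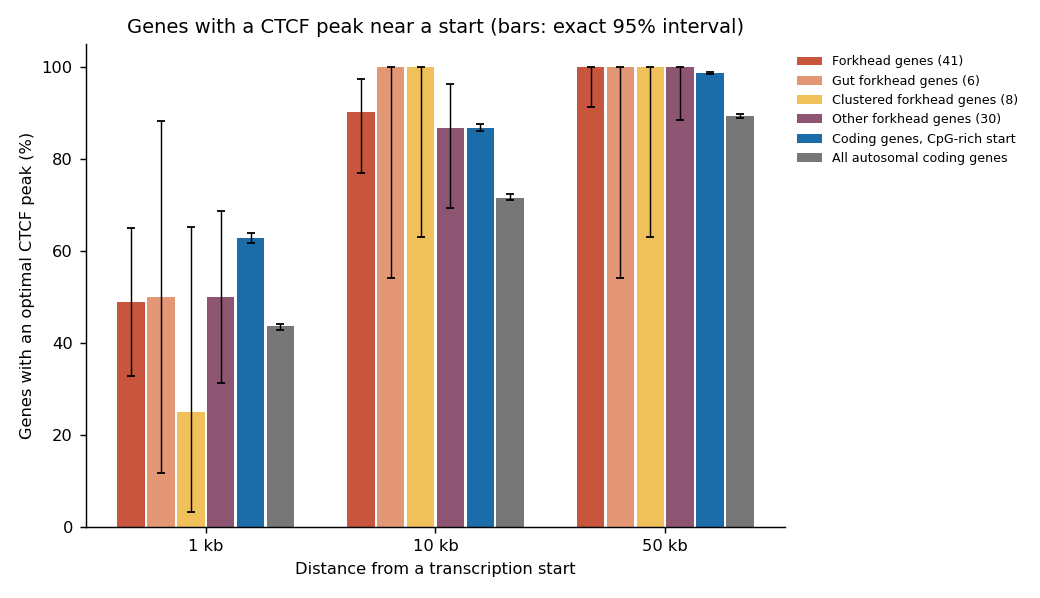
Share of genes, in percent, with an optimal CTCF peak within 1, 10 or 50 kb of a transcription start, for forkhead genes, 3 subsets of them, coding genes with a CpG-rich start and all autosomal coding genes; black bars are exact 95% intervals. At 10 kb the forkhead share of 90.2% stands above that of all genes, 71.6%, and near that of genes with a CpG-rich start, 86.8%.

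The peaks near forkhead genes ranged from among the strongest of the list to the weakest. Signal here is the value the authors deposited for each peak, which ranks peaks within a list and ran from 4.99 to 677 with a median of 76.6 in the optimal list. Over the 37 forkhead genes with a peak within 10 kb, the strongest such peak had a median signal of 238 and a range from 14.2 to 549, beside a median of 199 over all genes with a peak. Within 1 kb the order was the other way, with a median of 40.8 for forkhead genes and 72.8 for all genes. For 8 of the 37 genes the strongest peak was in the top 10% of the optimal list (21.6%), beside 22.4% of all genes with a peak, and for 5 it was below the list's median (13.5%), beside 27.5%. A forkhead gene had a median of 2.00 peaks within 10 kb and 7 within 50 kb, beside 1.00 and 6.00 over all genes. Over all genes with a CpG-rich start, both medians were the same as for forkhead genes.

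**Figure D2:**
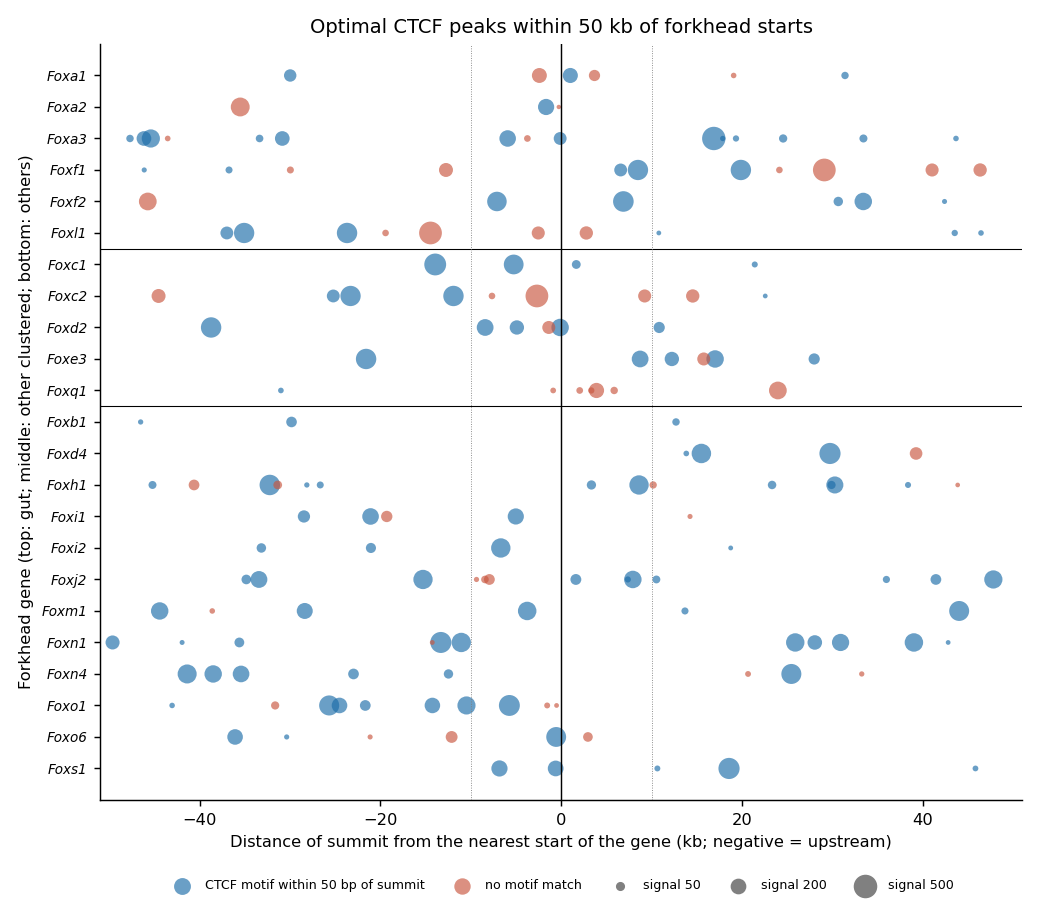
Optimal CTCF peaks within 50 kb of the starts of 23 forkhead genes, 1 gene a line (the gut genes, the other clustered genes, the 8 others with the strongest peak within 10 kb and the 4 with none), by distance of the summit from the nearest start in kb, negative upstream; circle area grows with signal, blue circles hold the CTCF motif within 50 bp of the summit and red circles do not. The dotted lines mark 10 kb, and no circle lies between them for Foxb1, Foxd4, Foxn1 and Foxn4.

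The 6 gut genes all had a peak within 10 kb, and 3 of them, Foxa1, Foxa2 and Foxa3, had one within 1 kb. The median signal of their strongest peak within 10 kb was 281, with a range from 184 to 448, and that of the other 35 forkhead genes was 224 over the 31 with a peak. Of those 35 genes, 31 had a peak within 10 kb (88.6%) and 17 within 1 kb (48.6%). With 6 genes the interval on the gut share at 10 kb reached down to 54.1%, below the share of the other genes, and the ranges of signal overlapped.

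The 3 epithelial genes each had a peak within 1 kb, and at Foxa2 and Foxa3 a stronger one stood further upstream. Measured from the gene's 5′ end instead of the coding transcript start, Foxa1 had no peak within 1 kb. At Foxa1, which acts in endoderm and glandular epithelium, the strongest peak lay in the intron 998 bp from the start, at chr12:57545011-57545240, with a signal of 238. Its signal was 123 in replicate 1 and 117 in replicate 2. A peak of 233 without a motif match stood 2424 bp upstream, and a peak of 129 without one stood in the coding exon. Of these 3 peaks, the intronic one alone held the motif. Replicate 1 ran higher than replicate 2 over the whole optimal list, by a median of 0.42 on the log2 scale, and relative to that the intronic peak differed by -0.34, the upstream peak by 0.32 and the exonic peak by 0.71.

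Foxa2, needed for the foregut endoderm to form, had its strong peak outside the gene. It lay 1680 bp upstream at chr2:148048514-148048774 with a signal of 275, and measured 163 in replicate 1 and 114 in replicate 2. The peak 275 bp from the nearest start had a signal of 14.0, with 12.7 in replicate 1 and no summit within 100 bp in replicate 2. The count of Foxa2 at 1 kb therefore rested on a weak peak of 1 replicate, and the gene was absent at 1 kb from the conservative list, the stricter of the authors' lists. Within 50 kb Foxa2 had 3 peaks, the fewest of any forkhead gene, a number shared with Foxb1, Foxb2, Foxd3 and Foxn2, and the strongest of its 3 measured 376 at 35506 bp upstream.

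Foxa3, which acts in liver and gut endoderm, lay in denser surroundings, with 15 peaks within 50 kb. Its peak 126 bp upstream of the start measured 171, with 102 and 67.9 in replicates 1 and 2. The strongest within 10 kb, at chr7:19029335-19029595 in an intron of the neighbouring gene Sympk, measured 287, with 171 and 115. Both held the motif, and both differed from the usual ratio of the replicates by 0.16 on the log2 scale. At 16865 bp past the start, beyond the end of the gene in an untranslated exon of Irf2bp1, stood a peak of 580.2 with the motif (311 and 270.4), the strongest peak within 50 kb of any forkhead gene.

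The mesenchymal genes Foxf1, Foxf2 and Foxl1 had no peak within 1 kb, and all 3 lie in clusters with other forkhead genes. A gene was called clustered when its start lay within 250 kb of another forkhead start, which gave 8 genes in 3 clusters. The clustered genes had 2 of 8 with a peak within 1 kb, Foxd2 and Foxq1, and 8 of 8 within 10 kb. The strongest peak within 10 kb of the clustered genes had a median signal of 367, beside 221 over the 29 unclustered forkhead genes with a peak and 186 over the 26 that were neither gut nor clustered. The ranges overlapped, from 184 to 549 for clustered and from 14.2 to 463 for unclustered genes. Over the 5 clustered genes that are not gut genes the median was 320.2. Some clustered genes share peaks, since 2 of the 96 peaks within 10 kb of a forkhead start lay that near to more than 1 forkhead gene.

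On chromosome 8, Foxf1, Foxc2 and Foxl1 follow each other on the plus strand over 43.6 kb, with 9 peaks from 20 kb before the first start to 20 kb after the last. The annotated gene Gm20388 runs through the cluster, so most of these peaks are annotated to its introns. Foxf1 is required for the visceral mesoderm, and its strongest peak within 10 kb lay 8479 bp past the start in an untranslated exon of Mthfsd, at chr8:121092718-121093007. It measured 435 in the optimal list, 244 in replicate 1 and 193 in replicate 2. A weaker peak of 171 stood 6568 bp past the start, and both carried the motif on the minus strand.

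Foxc2, a factor of vessels and lymphatics, had the strongest peak within 10 kb of any forkhead gene. It stood 2696 bp upstream at chr8:121113270-121113701 with a signal of 549, higher than 99.8% of optimal peaks, and measured 290.4 in replicate 1 and 259 in replicate 2. No match lay wholly within 50 bp of its summit. The plus-strand site printed above, with its centre 42 bp from the summit, runs past the edge of that window, and it was found when the window was widened to 100 bp. Among the strongest 1% of optimal peaks outside chromosome 1, 34 of 701 had no match within 50 bp, or 4.85%.

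Between Foxf1 and Foxc2 stood 5 peaks, and the one 19.9 kb from the Foxf1 start, in introns of Gm20388 and Mthfsd, measured 439 (263 and 180.2) with its motif on the plus strand. The minus-strand motifs at 6.6 and 8.5 kb therefore lay before the plus-strand motif at 19.9 kb, so that the strands point away from each other. Foxl1, a gene of the mesenchymal cells beneath the gut epithelium, had peaks of 177 at 2547 bp upstream and 184 at 2766 bp past the start. They measured 112 and 121 in replicate 1 and 65.8 and 66.3 in replicate 2. Neither had the motif within 50 bp, and relative to the usual ratio both leaned to replicate 1, by 0.35 and 0.45 on the log2 scale. The peak of 177 is the only one between Foxc2 and Foxl1. Fendrr is the noncoding RNA gene that starts 1276 bp from Foxf1 in the other direction. The peak closest to any of its annotated starts was 5988 bp from an internal one, with a signal of 45.9 and no motif. Within 10 kb of its starts Fendrr had 3 peaks, the strongest being the peak of 435 described at Foxf1.

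On chromosome 13, Foxq1, Foxf2 and Foxc1 spread over 250.5 kb with 16 peaks, and the stretches on either side of Foxf2 differed. From Foxq1 to Foxf2 there were 6 peaks, of which 1 had the motif, and from Foxf2 to Foxc1 there were 8, of which 7 had it. Of all optimal autosomal peaks outside chromosome 1, 68.2% held the motif. Among the 7 was a weak peak of 20.5 that was absent from the conservative list. Foxq1, which is needed for mucin expression in the surface cells of the stomach, had 5 peaks within 10 kb and none with the motif. The strongest, in its coding exon at chr13:31559898-31560158, measured 242, with 163 in replicate 1 and 79.1 in replicate 2. The other 4 measured between 28.5 and 52.5. A peak of 331 (198 and 132) followed 23952 bp past the Foxq1 start, also without the motif.

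Foxf2, the second Foxf gene of the gut mesenchyme, was flanked by a strong peak on either side. The peak 7118 bp upstream measured 402, with 247 and 159 in replicates 1 and 2, and that 6865 bp past the start, at chr13:31632527-31632818, measured 448, with 249 and 200.2. Both motifs were on the minus strand. Foxc1, which acts in mesenchyme of the eye, heart and skull, had a peak of 413 (252 and 164) 5264 bp upstream at chr13:31801236-31801523. Another peak of 506 (278 and 229) stood 13943 bp upstream, and both motifs there were on the plus strand. Between Foxf2 and Foxc1, 3 minus-strand motifs came first along the chromosome and 4 plus-strand motifs followed. A peak of 77.1 in the coding exon of Foxc1 carried the motif on the minus strand.

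On chromosome 4, Foxd2 and Foxe3 are 17.1 kb apart and both on the minus strand, with 4 peaks between their starts. Foxd2, a factor of kidney and facial mesenchyme, had a peak 130 bp upstream of its start at chr4:114908858-114909201, the strongest peak within 1 kb of a clustered gene. It measured 320.2, with 199 in replicate 1 and 125 in replicate 2, and also lay 254 bp from the start of the noncoding gene Foxd2os. Peaks of 175 without the motif, 214 with it on the minus strand and 295 with it on the plus strand followed upstream. Foxe3, a gene of the lens, had the peak of 295 (154 and 141) as its only peak within 10 kb, at 8718 bp past its start. All 5 peaks in and around this cluster were found in both replicates, with signals between 128 and 320.2.

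**Figure D3:**
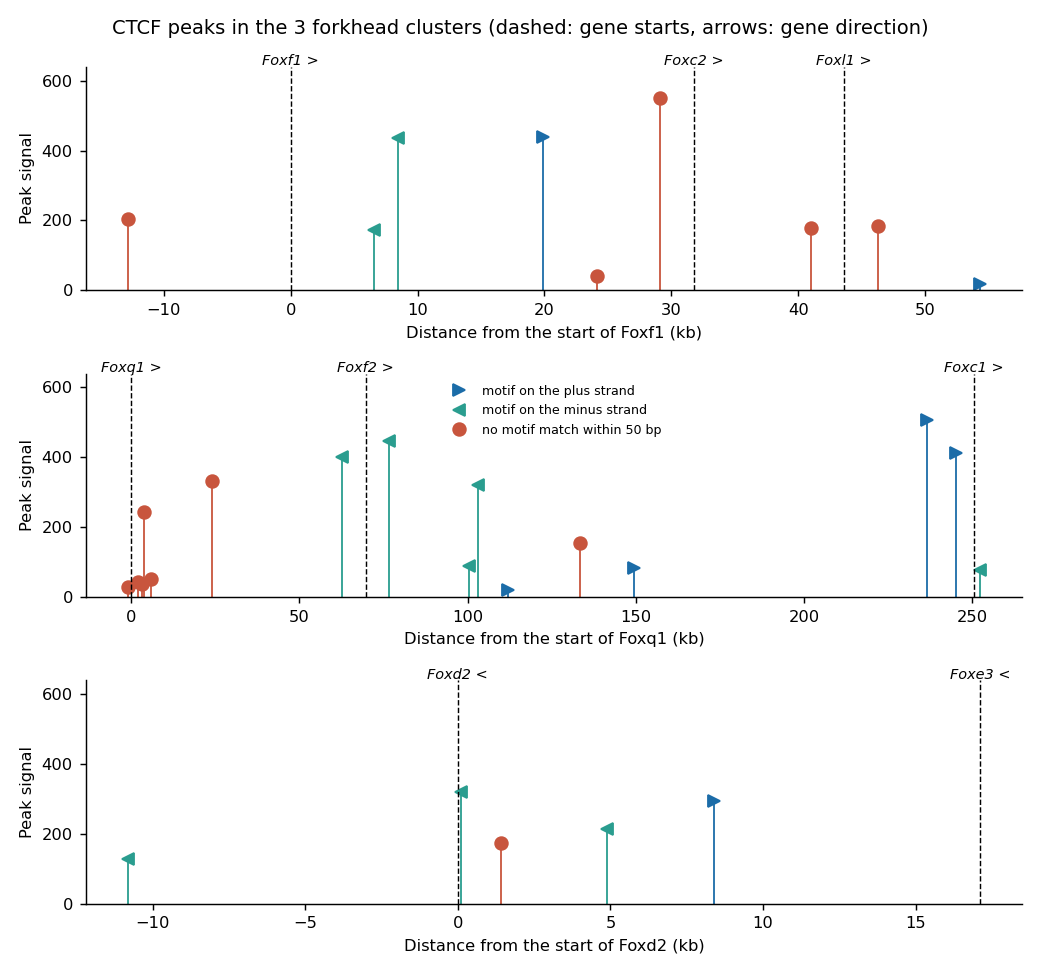
Peaks in the 3 forkhead clusters by distance in kb from the start of the first gene, with peak signal on the vertical axis; triangles give the strand of the CTCF motif, red circles have no match within 50 bp of the summit, and dashed lines are gene starts with the gene's direction. The 5 peaks at Foxq1 are all red, whereas 7 of the 8 peaks between Foxf2 and Foxc1 carry the motif, beside 68.2% of all optimal autosomal peaks outside chromosome 1.

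Among the forkhead genes that were neither gut nor clustered, the 8 with the strongest peak within 10 kb all had the motif there. Strong peaks mostly held it anywhere. Of the strongest 20% of optimal autosomal peaks outside chromosome 1, 1014 of 13667 lacked it (7.42%). Foxo1, which insulin signalling moves out of the nucleus, led with a peak of 463 (242 and 221) 5742 bp upstream at chr3:52262456-52262755. Its 2 nearer peaks were weak, with signals of 30.7 and 17.5 and no motif. Foxo6 had a peak of 417 (256 and 162) 565 bp upstream at chr4:120287746-120288066, the strongest peak within 1 kb of any forkhead start, and this peak also lay 3436 bp from the start of Foxo6os.

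Foxi2 had a single peak within 10 kb, which measured 396 (209 and 192) 6690 bp upstream at chr7:135403492-135403750. Foxh1, the DNA-binding partner of Smad proteins under Nodal signalling, had 395 (233 and 163) at chr15:76661200-76661486, within a coding exon of Kifc2. Foxm1, which drives the genes of mitosis, had 360.4 (196 and 164) in a coding exon of its neighbour Rhno1 at chr6:128359048-128359331. These last 2 peaks thus lay in coding sequence of the gene next door.

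Foxj2 had 6 peaks within 10 kb, the strongest of them 322 (182 and 144) in its own intron at chr6:122834457-122834724, and it counts from an internal start of the gene. Foxs1 had 275 (165 and 109.9) 6839 bp upstream and 259 (158 and 102) 623 bp upstream, at chr2:152939942-152940163 and chr2:152933706-152933946. Foxi1, a master gene of ionocytes and of the inner ear, had 274 (143 and 132) 5032 bp upstream at chr11:34213003-34213244. Among these 8 peaks the ratio of the replicates departed from the usual one by between -0.31 and 0.25 on the log2 scale, to either side.

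No peak lay within 10 kb of 4 forkhead genes, Foxn1, Foxn4, Foxb1 and Foxd4. Foxn1, the thymus gene disrupted in nude mice, was the nearest case: a peak of 396 (222 and 174) with the motif stood 11061 bp upstream in an untranslated exon of Slc13a2. Foxn4, a gene of the retina, had its nearest peak at 12476 bp with 87.2 (42.4 and 42.8). Foxb1, a gene of the hypothalamus, had one of 52.6 (28.7 and 21.3) at 12687 bp, and Foxd4 one of 27.4 (17.7 and 9.22) at 13823 bp. The 4 nearest peaks all held the motif and lay just past the limit of 10 kb.
At the weak end, 5 genes had a strongest peak within 10 kb below the median of the optimal list. Foxk2 had 1 peak, of 14.2 (10.4 and 6.18), 560 bp into the gene, higher than 1.13% of optimal peaks, and the peak was missing from the conservative list. Foxp4 had 4 peaks with a highest signal of 33.9, Foxb2 had 1 peak of 37.9, Foxn2 had 2 peaks of 39.2 and 39.0, and Foxe1 had 2 peaks of 41.1 and 39.5. Foxn2 was the weakest gene at 50 kb too, where its strongest peak measured 41.8. The most peaks within 50 kb were the 23 of Foxp1, a long gene with several starts.

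The share of peaks with the CTCF motif differed with distance. A peak held the motif when a match on either strand scored at least 10.35, a level that 1% of random windows reached, and lay wholly within 50 bp of the summit. Within 1 kb of a forkhead start 9 of 22 peaks held it (40.9%), beside 35.5% of peaks that near to any coding gene. From 1 to 10 kb, 39 of 74 did (52.7%, exact 95% interval from 40.7% to 64.4%), beside 73.0% of the corresponding peaks of all genes. From 10 to 50 kb, 154 of 217 did (71.0%), beside 76.3%. Past 1 kb these comparisons are not like for like, since each bin was set by the nearest start of its own group. The all-gene bins thus leave out peaks within 1 kb of any coding start, whereas the forkhead bins keep those at starts of other genes. In windows 1 kb to the side of the peaks, 1.92% held a match for forkhead genes within 50 kb and 1.96% for all genes.

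Counted from each gene's own starts in both groups, 19 of 35 forkhead genes with a peak at 1 to 10 kb had at least 1 without the motif (54.3%). The share was 45.5% of all genes with such a peak outside chromosome 1. The shares of peaks that follow use the unlike bins again. Peaks in CpG-rich sequence, judged over 250 bp on either side of the summit, made up 14 of the 74 (18.9%), beside 4.32% for all genes, and 4 of these 14 held the motif (28.6%). Among the other 60, 35 held it (58.3%), beside 74.4% for all genes. The peaks with the motif had a median signal of 182 and those without it 55.5, beside 125 and 41.7 for all genes. Whether base composition, signal or the unlike bins account for the share was not tested.

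**Figure D4:**
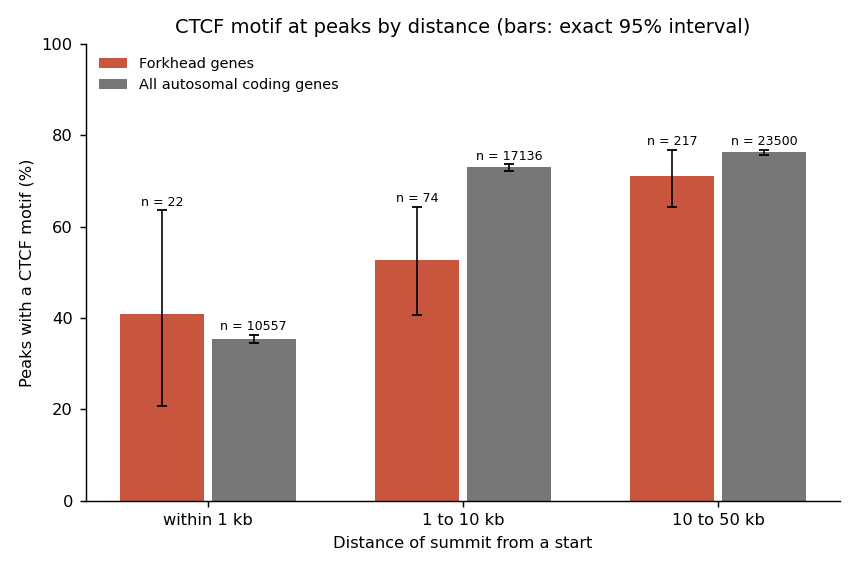
Share of optimal peaks, in percent, with the CTCF motif within 50 bp of the summit, by distance of the summit from the nearest start, for forkhead genes and all autosomal coding genes; n is the number of peaks and black bars are exact 95% intervals. The forkhead share at 1 to 10 kb is 52.7% of 74 peaks, beside 73.0% for all genes. The nearest start is a forkhead start for the former and any coding start for the latter, so the bins past 1 kb are not alike.

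Counted by gene, the strongest peak within 10 kb held the motif in 25 of 37 forkhead genes (67.6%), beside 69.3% of all genes. In 9 genes (24.3%) no peak within 10 kb held it, beside 20.6%, namely Foxc2, Foxi3, Foxj1, Foxj3, Foxk2, Foxl1, Foxn2, Foxn3 and Foxq1. Foxj1, the master gene of motile cilia, is an example, with a single peak of 165 (100.3 and 64.2) 453 bp upstream. In 13 genes (35.1%) every peak within 10 kb held the motif, beside 34.3%, among them Foxf1, Foxf2, Foxc1 and Foxe3. By gene, the forkhead shares were thus near those of all genes outside chromosome 1. Along the gene, 30 of 49 motif matches within 10 kb pointed in the direction of transcription (61.2%), beside 51.6% for all genes, and at 50 kb the share was 50.5% beside 50.7%.

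To give longer context, 121 bases around the summit are shown for the peaks of Foxo1 and Foxf2, the unclustered gene and the gut gene with the strongest peak within 10 kb. Both are written on the plus strand, with the motif match in capitals, and the Foxf2 match therefore appears as its reverse complement.
Foxo1, chr3:52262534-52262654: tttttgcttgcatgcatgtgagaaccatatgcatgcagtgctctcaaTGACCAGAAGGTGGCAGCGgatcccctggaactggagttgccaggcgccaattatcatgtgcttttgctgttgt
Foxf2, chr13:31632621-31632741: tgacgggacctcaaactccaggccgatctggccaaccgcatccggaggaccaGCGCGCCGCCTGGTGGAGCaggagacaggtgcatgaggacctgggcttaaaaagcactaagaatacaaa

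More peaks near forkhead genes were upstream of them than inside. Of the 98 pairs of a forkhead gene and a peak within 10 kb, 48 were upstream (49.0%), 36 inside the gene (36.7%) and 14 downstream (14.3%), beside 42.2%, 48.5% and 9.31% over all genes. The genes are short, with a median length of 5064 bp beside 17595 bp, and 13 of 41 (31.7%) have a single exon, beside 5.74%. Of the 96 different peaks, 44 were in introns of any gene, 33 were intergenic, 9 in coding exons, 5 in untranslated exons and 5 in noncoding exons. Inside a forkhead gene lay 35 of them, among them peaks in coding exons of Foxa1, Foxc1, Foxj2, Foxl2 and Foxq1. The split by annotation was not made for all genes, so it cannot be read as particular to forkhead genes. No other coding gene started within 50 kb of 17 forkhead genes (41.5%), beside 22.2% of all genes.

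Nearly all peaks within 10 kb of forkhead genes had a summit in both replicates. The optimal list was itself made by comparing these replicates, so such presence was largely set by how the list was made. The first count below is given without a share over all genes. Of the 96 peaks within 10 kb, 94 had a summit within 100 bp in the full lists of both replicates, and the exceptions were the weak peaks of Foxa2 and Foxp4, with signals of 14.0 and 17.0, which replicate 2 lacked. A stricter count took the 74283 strongest peaks of each replicate, as many as the optimal list holds on chromosomes. By that count 15 of 22 peaks within 1 kb were in both replicates (68.2%), 67 of 74 from 1 to 10 kb (90.5%) and 179 of 217 from 10 to 50 kb (82.5%), beside 73.9%, 84.8% and 85.7% for all genes. The bins past 1 kb are unlike between the groups here too.

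The general offset of 0.42 on the log2 scale was subtracted before the replicates were compared. After that, peaks within 1 kb of forkhead starts were still higher in replicate 1 by a median of 0.22, and so were those of all coding genes, by 0.22. At 1 to 10 kb, where the bins are unlike, the difference was 0.09 for forkhead genes and -0.01 for all genes. The forkhead value was less than the median size of 0.23 that such differences had. The skew at starts was therefore shared with genes in general.

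**Figure D5:**
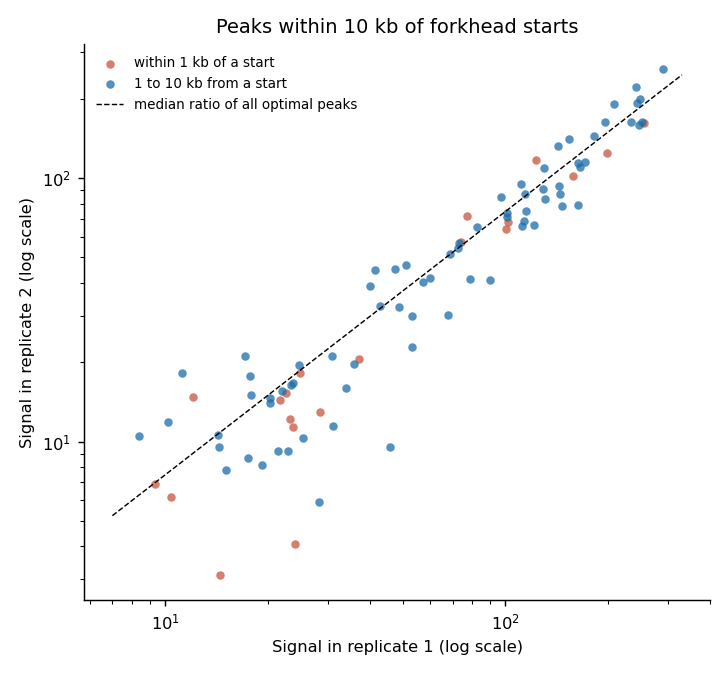
Signal of the peaks within 10 kb of forkhead starts in replicate 1 against replicate 2, on log axes; red points lie within 1 kb of a start, blue points 1 to 10 kb away, and the dashed line is the median ratio of all optimal peaks. The points follow the line, with the peak upstream of Foxc2 at the top right, at 290.4 and 259.

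Other regulators of gut development gave counts like those of the forkhead genes. In a list of 23 gut transcription factor and hedgehog genes, 9 had a peak within 1 kb (39.1%), 20 within 10 kb (87.0%) and 22 within 50 kb (95.7%). The shares of all autosomal coding genes were 43.6%, 71.6% and 89.3%, and 86.8% of genes with a CpG-rich start had a peak within 10 kb. The strongest within 10 kb were at Nkx3-2, a mesenchymal factor of the stomach, with 519, at Gli1, a target of hedgehog signalling, with 443, at Cdx1, a factor of the intestinal epithelium, with 425, and at Barx1, which directs stomach identity from the mesenchyme, with 403. Pdx1, Nkx2-5 and Gli3 had none within 10 kb. Other families of developmental transcription factors also stood near CTCF, with 17 of 18 Sox genes, 11 of 12 Tbx genes, 15 of 16 Klf genes, 4 of 5 Gata genes, 6 of 6 Irx genes and 11 of 14 Nkx genes having a peak within 10 kb. At 1 kb, the forkhead family had 20 of 41. The Sox, Klf, Gata and Irx families had higher shares, with 11 of 18, 11 of 16, 4 of 5 and 4 of 6. The Tbx and Nkx families had lower shares, with 5 of 12 and 0 of 14.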

How the data were processed

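CTCF ChIP-seq of 1 group of 2 replicates was analysed from peak lists in mm10 coordinates. Per the deposited descriptions, relaxed peaks were called from alignments with a control alignment, and IDR lists (optimal and conservative) were made from both replicates. For the aligner, the caller and the IDR cutoff, nothing was given in the sources used here. Peak signal was taken as the authors deposited it, with no scaling between lists. Read depth is unknown; either replicate's relaxed list had 300000 peaks. The optimal list held 74283 peaks on chromosomes.

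Genes were those of GENCODE M21, and distances ran from the summit to the nearest coding transcript start. A 19-position CTCF matrix was made from 975 sites in the 1000 strongest chromosome 1 peaks, checked on simulated data, and applied elsewhere, with the threshold from 20000 random windows. Python 3.11.15 with numpy 2.4.6, pandas 2.3.3 and scipy 1.17.1 was used. Members, lists and settings were chosen with earlier results of these data known. Genes named were all gut and clustered members, the 8 others with the strongest peak within 10 kb, and those with none; further members were chosen for mention after their values were seen. Alternatives were the conservative list, peaks above the median signal, each replicate alone, the gene's 5′ end, the peak edge, narrower clusters and other motif settings.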

Additional observations from a re-analysis of the deposited data

Results flagged for a closer look

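Weaker peaks that did not enter the optimal list also held CTCF motifs near forkhead genes. In the relaxed lists, 203 summits within 50 kb of a forkhead start were found in both replicates within 100 bp and lay more than 300 bp from any optimal summit. Of these, 49 held the motif, or 24.1% with an exact 95% interval from 18.4% to 30.6%, while 2 of the windows 1 kb beside them did, or 0.985%. They were picked out because these peaks are outside the list used for every count in the report. Within 10 kb there were 72 such peaks, 15 with the motif (20.8%), near 31 of the 41 genes. The same counts were not made for all coding genes, so these shares cannot be read as particular to forkhead genes. Of the genes with no optimal peak within 10 kb, Foxd4 had 2 such peaks, 1 with the motif, Foxn4 had 1 without it, and Foxb1 and Foxn1 had 0.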

How the results depend on the processing

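The count of forkhead genes with a peak within 10 kb was 37 and ran from 32 to 37 over the alternatives; the 32 came from peaks at or above the median signal, beside 51.9% of all genes, and left out Foxb2, Foxe1, Foxk2, Foxn2 and Foxp4. With those peaks the count within 1 kb fell from 20 to 8, beside 21.2% of all genes, and that of clustered genes from 2 to 1; the Foxa2, Foxk2 and Foxq1 starts were among those lost. Without a replicate, the 1 kb count of clustered genes ran from 3 to 4 and that of all forkhead genes from 16 to 21, and the median percentile of the strongest peak within 10 kb, 75.8 in the optimal list, ran from 75.5 to 77.1. At a motif threshold that 0.1% of random windows met, the share within 50 kb went from 64.5% to 26.8% (all genes 26.0%) and, in a check chosen after seeing the data, that at 1 to 10 kb from 52.7% to 17.6% (all genes 28.8%). With a window of 100 bp the share at 1 to 10 kb was 55.4% (all genes 74.4%). The all-gene shares at 1 to 10 kb leave out peaks within 1 kb of any coding start, and the forkhead shares do not. Against all relaxed peaks, 99.0% of peaks within 50 kb were in both replicates, not 83.4%. Measured from the gene's 5′ end, the 1 kb count was 16, beside 38.8% of all genes, and left out Foxa1, Foxj3, Foxn3 and Foxp2. From that end, the strongest peak within 10 kb of Foxj2 fell to 120.2 and that of Foxn3 to 50.4. By peak edge, that of Foxl2 was 209. No paired analysis was possible because there was 1 group. Read depth is unknown, and its part in the weak peaks, such as those at Foxa2 and Foxk2, was not tested.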

Other observations

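The strands of the CTCF motifs were ordered alike in the gaps between clustered forkhead genes, a pattern noticed after the values were seen. In the gaps Foxf1 to Foxc2, Foxf2 to Foxc1 and Foxd2 to Foxe3, all minus-strand motifs came before all plus-strand motifs along the chromosome, with 7 on the minus strand and 6 on the plus strand. The orders had 2 minus then 1 plus in the first and last gap, and 3 minus then 4 plus between Foxf2 and Foxc1. The site found near the Foxc2 peak with the wider window is on the plus strand and extends the first order without changing it. The gap from Foxq1 to Foxf2 held 1 motif, on the minus strand. The order depends on the motif threshold. At 17.10, the score that 0.1% of random windows met, the minus-strand sites of Foxf1 to Foxc2 (13.78 and 14.31) fall out. So do those of Foxf2 to Foxc1 (11.05, 15.56 and 13.46). From Foxd2 to Foxe3, sites of 19.57 (minus) and 19.47 (plus) stay. The weakest plus-strand peak from Foxf2 to Foxc1, of 20.5, was absent from the conservative list. Over all autosomes except chromosome 1, 25.0% of runs of 3 consecutive motif peaks and 6.19% of runs of 7 had minus before plus in this way. The gaps are few, and the gene direction differs between them, plus on chromosomes 8 and 13 and minus on chromosome 4. Whether the order bears on loops was not tested.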
